A study of Mus musculus with 6 samples.

Results

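The endothelial and sinusoidal endothelial genes comprised 35 genes chosen by gene symbol, of 20678 genes that had a probe set of their own on the arrays. All 35 were found. They cover adhesion and junction proteins of vessels, growth factor receptors, scavenger receptors of liver sinusoids, peptide receptors, and transcription and signalling genes. The samples came from E12.5 liver of wild type C57Bl6 mouse embryos, and each group was hybridised to 1 Affymetrix Mouse Genome 430 2.0 array. Liver cells, ALCAM+ cells, and ALCAM+ cells separated as PDPN+, PDPN-, ITGA8+ or ITGA8- were profiled. ALCAM is an adhesion molecule of the immunoglobulin family, PDPN is podoplanin, found on mesothelium and lymphatic vessels, and ITGA8 is the integrin alpha 8 subunit. The series concerns embryonic hepatic stellate cells, liver mesenchyme that stores vitamin A, so endothelium was not a sorted population in any group. The labels do not say how many embryos gave each sample. The sort markers followed the sorts: Alcam was at 3207 in liver and 13425 in ALCAM+ cells, Pdpn at 7746 in PDPN+ and 117 in PDPN- cells, and Itga8 at 4354 in ITGA8+ and 871 in ITGA8- cells.

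Endothelial cells line the blood vessels. They are joined by VE-cadherin and claudin 5, and they respond to VEGF and angiopoietins through the VEGF and TIE receptors. In the liver the capillaries are sinusoids, whose fenestrated lining takes up waste molecules through stabilins and other scavenger receptors. In the fetus these sinusoids lie beside hepatoblasts, stellate cells and developing blood. Several of the genes are not exclusive to endothelium: Pecam1, Tek, Cd34, Lmo2, Erg, Esam and Icam2 are also expressed by platelets, their precursors or blood progenitors, and Lyve1, Stab1 and Fcgr2b by macrophages.

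With 1 array per group no difference has a replicate check, so no test was made and no p-value is given. Values are array intensities on a linear scale, and differences are between values of log2(intensity + 16). Genes were counted in a comparison if at least 1 of both arrays was above 109, the median intensity of all probe sets, here called the floor. They were called at 2-fold. The 4 fraction arrays share 1 scale, with trimmed means of 995.8 to 996.6, and the liver and ALCAM+ arrays another, with 194.7 and 329.0, so levels are compared only within these sets. The median probe set intensity was 123 in PDPN- and 173 to 200 in the other fractions, and 9.53% to 19.1% of probe sets lay below the pseudocount of 16. In these mixed samples fewer cells of a type and less RNA per cell cannot be told apart.

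Promoter windows of 300 bases around the start of the gene are shown for 6 genes because they stand for the opposite patterns described below. Robo4, Cd34, Kdr and Flt4 had their lowest level in PDPN- cells, and Eng and Clec4g were higher in PDPN- than in PDPN+ cells. For Clec4g both levels were under the floor, the difference was short of 2-fold, and its other probe set went the other way. Sequences are from RefSeq, build GRCm38.p6, 5′ to 3′ on the strand of the gene. Capitals mark CAGGAAG, letters that ETS family factors such as ERG can bind, on either strand.
Robo4, chr9:37401722-37402021, plus strand: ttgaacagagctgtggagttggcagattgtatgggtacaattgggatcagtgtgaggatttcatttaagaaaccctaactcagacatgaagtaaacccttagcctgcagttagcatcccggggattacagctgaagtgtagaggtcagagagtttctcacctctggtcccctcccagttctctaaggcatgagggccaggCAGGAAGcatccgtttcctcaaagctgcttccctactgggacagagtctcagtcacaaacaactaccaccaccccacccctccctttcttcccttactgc
Cd34, chr1:194938571-194938870, plus strand: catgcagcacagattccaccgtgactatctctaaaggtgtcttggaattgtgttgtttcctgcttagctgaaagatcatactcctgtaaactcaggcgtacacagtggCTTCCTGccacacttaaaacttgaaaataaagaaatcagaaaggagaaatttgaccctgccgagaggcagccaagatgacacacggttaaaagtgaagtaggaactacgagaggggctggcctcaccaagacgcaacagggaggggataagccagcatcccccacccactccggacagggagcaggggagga
Kdr, chr5:75978406-75978705, minus strand: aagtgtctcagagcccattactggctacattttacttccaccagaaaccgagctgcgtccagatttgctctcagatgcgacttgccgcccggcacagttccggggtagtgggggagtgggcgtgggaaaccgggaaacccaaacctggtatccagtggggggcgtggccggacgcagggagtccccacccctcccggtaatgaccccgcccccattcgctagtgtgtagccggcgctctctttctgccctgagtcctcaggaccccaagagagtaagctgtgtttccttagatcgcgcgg
Flt4, chr11:49609429-49609728, plus strand: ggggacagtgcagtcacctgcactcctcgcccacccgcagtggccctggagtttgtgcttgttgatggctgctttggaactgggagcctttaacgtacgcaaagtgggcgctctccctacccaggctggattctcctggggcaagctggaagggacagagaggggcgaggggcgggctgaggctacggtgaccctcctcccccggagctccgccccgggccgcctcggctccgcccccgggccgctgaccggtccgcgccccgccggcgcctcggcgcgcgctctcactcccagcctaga
Eng, chr2:32646345-32646644, plus strand: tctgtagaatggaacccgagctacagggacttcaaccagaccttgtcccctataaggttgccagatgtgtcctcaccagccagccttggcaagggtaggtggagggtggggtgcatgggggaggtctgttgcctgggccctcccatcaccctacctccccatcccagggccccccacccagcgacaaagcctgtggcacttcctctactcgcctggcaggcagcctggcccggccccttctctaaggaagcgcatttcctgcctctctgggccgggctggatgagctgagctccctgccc
Clec4g, chr8:3720602-3720901, minus strand: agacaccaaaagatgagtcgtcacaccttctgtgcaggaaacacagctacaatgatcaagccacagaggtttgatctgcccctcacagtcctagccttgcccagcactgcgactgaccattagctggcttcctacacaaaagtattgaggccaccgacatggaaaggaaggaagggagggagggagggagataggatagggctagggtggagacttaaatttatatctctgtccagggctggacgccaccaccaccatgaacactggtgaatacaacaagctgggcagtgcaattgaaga
The table held windows for 21 of the 35 genes. CAGGAAG on either strand was in 7 of the 21, namely Emcn, Robo4, Cd34, Stab1, Calcrl, Rasip1 and Egfl7, or 33.3%, against 13.0% of 27025 windows of all genes. Another ETS word, CCGGAAG, was in 0 of the 21 and in 9.12% of all windows. AGATAA, letters of GATA factors, was in the Tek window alone, or 4.76%, against 11.4%. CACCC, letters of KLF factors, was in 18 of the 21, or 85.7%, against 56.7%; it is short and follows base composition. The ETS words share the ending GGAAG, and a match is a description of these letters only.

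PDPN- cells had the lowest level of the 4 fractions for 25 of the 35 genes, against 38.7% of all genes. Both arrays of the ITGA8 sort lay above both arrays of the PDPN sort for 24 of the 35, against 35% of all genes. The highest level was in ITGA8+ cells for 19 genes, in ITGA8- cells for 11, in PDPN+ cells for 4 and in PDPN- cells for 1, Gpr182. The highest fraction was not counted over all genes. Of the 35 genes, 31 exceeded the floor in ITGA8+ cells, 31 in ITGA8- cells, 20 in PDPN+ cells and 12 in PDPN- cells. Of all 20678 genes, 13357, 13307, 13006 and 11868 did so, in the same order. In PDPN- cells 11 of the 35 were below 16. Of all probe sets 19.1% were, but these include the lower probe sets of a gene, and the share over genes was not counted. Bmx, a cytoplasmic tyrosine kinase gene of endocardium and arteries, was at 3 to 18 in the 6 arrays and below the floor throughout. These counts over the 4 fractions were chosen after values had been seen.

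**Figure D1:**
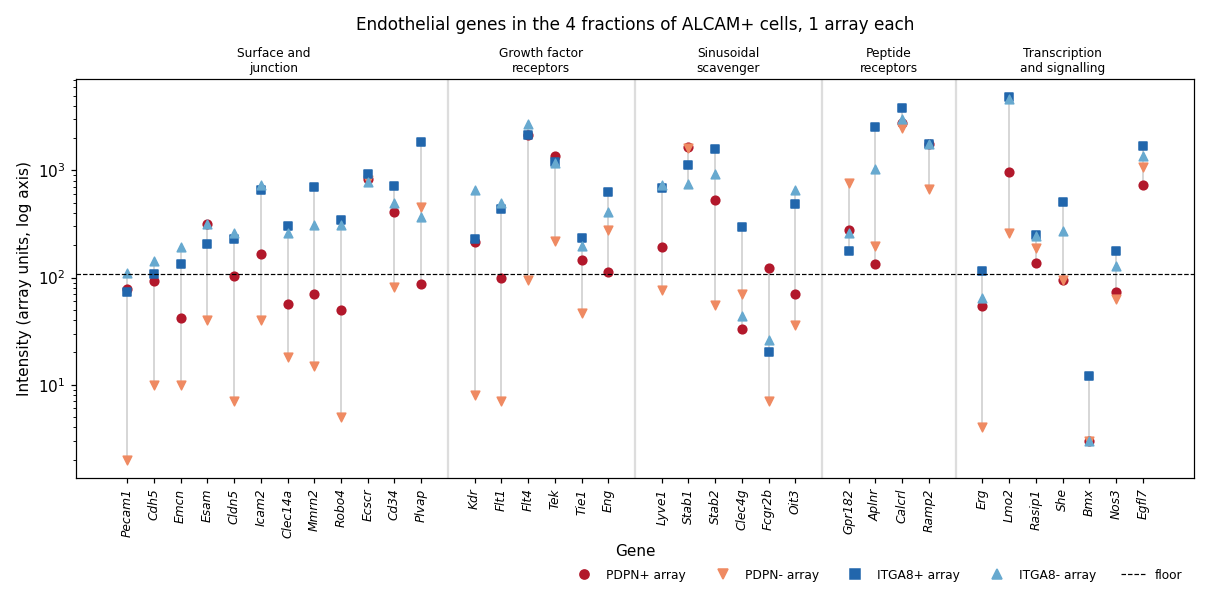
Intensity (log axis) of each of the 35 genes in the PDPN+, PDPN-, ITGA8+ and ITGA8- arrays, 1 point per array, grouped by role; the dashed line is the floor at 109. PDPN- is the lowest point for 25 genes, and Plvap, Eng, Clec4g, Aplnr, Rasip1, Egfl7, Gpr182, Ecscr and Stab1 have it elsewhere, with Bmx tied at 3.

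Of 12 adhesion and junction genes 10 were lowest in PDPN- cells, all but Ecscr and Plvap, beside 38.7% of all genes. Cdh5, which encodes VE-cadherin of endothelial junctions, was at 92 in PDPN+ and 10 in PDPN- cells, and at 107 in ITGA8+ and 143 in ITGA8- cells. Cldn5, the claudin of endothelial tight junctions, was at 104, 7, 227 and 262 in the same order. In the PDPN split both stayed below the floor and were not counted, and Cdh5 was near it even where it was highest. The other Cdh5 probe set, at 18, 30, 31 and 16, was below the floor throughout and lowest in ITGA8- cells. Pecam1, an adhesion molecule of endothelium, platelets and leukocytes, was at 78, 2, 74 and 111. Emcn, the sialomucin endomucin of capillaries and veins, was at 42, 10, 135 and 191. For Emcn the ITGA8 sort stood above the PDPN sort, whereas for Pecam1 the PDPN+, ITGA8+ and ITGA8- levels were close.

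The same order held for several vessel surface genes. Robo4, a roundabout receptor of endothelium, was at 50 in PDPN+ and 5 in PDPN- cells, and at 346 in ITGA8+ and 312 in ITGA8- cells. Clec14a, a lectin-like receptor that binds multimerin 2, was at 57, 18, 306 and 259. Mmrn2, multimerin 2 of the vessel matrix, was at 71, 15, 699 and 309. For these 3 genes the ITGA8 sort was far above the PDPN sort, and PDPN+ was itself below the floor. Icam2, a leukocyte integrin ligand on endothelium and platelets, was at 167, 40, 656 and 734. Cd34, a sialomucin of endothelium and blood progenitors, was at 408, 81, 723 and 500. Esam, an adhesion molecule of endothelium and platelets, was at 318, 40, 208 and 319. PDPN- was the outlying low array for all 3, while Esam showed no step between the sorts. Ecscr, an endothelial regulator of chemotaxis and apoptosis, was nearly level at 825, 809, 920 and 783.

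Plvap ran against this order. Its product builds the diaphragms of endothelial fenestrae and caveolae. It was at 88 in PDPN+ and 460 in PDPN- cells, and at 1840 in ITGA8+ and 365 in ITGA8- cells, so it was 4.58-fold higher in PDPN- than PDPN+ cells and 4.87-fold higher in ITGA8+ than ITGA8- cells. Between ITGA8+ and PDPN+ cells its log2 difference was 4.16.

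Of the growth factor receptor genes, 5 of 6 were lowest in PDPN- cells. Flt4, the VEGF-C receptor of lymphatic and sinusoidal endothelium, was at 2137 in PDPN+ and 95 in PDPN- cells, and at 2152 in ITGA8+ and 2688 in ITGA8- cells. It was 19.4-fold higher in PDPN+ than PDPN- cells, and its other probe set, at 1416, 54, 950 and 1417, gave 4.35 on the log2 scale against 4.28. Kdr, the main signalling receptor for VEGF-A, was at 217, 8, 231 and 651. It was 9.71-fold higher in PDPN+ than PDPN- cells, a size set by the pseudocount since PDPN- was under the floor: on the log2 scale it was 3.28 with 16, 4.60 with 1 and 1.96 with 64. It was 2.70-fold lower in ITGA8+ than ITGA8- cells, the only one of the 35 called lower in the ITGA8 split. Flt1, the VEGF receptor that acts largely as a decoy, was at 100, 7, 434 and 495. The 3 VEGF receptor genes thus shared a low PDPN- array, but they differed in PDPN+ cells, where Flt4 was as high as in ITGA8+ cells and Flt1 was below the floor.

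The TIE receptor genes were also lowest in PDPN- cells. Tek, the angiopoietin receptor TIE2, was at 1375 in PDPN+ and 221 in PDPN- cells, and at 1212 in ITGA8+ and 1171 in ITGA8- cells, 5.87-fold higher in PDPN+ than PDPN-. Tie1, which pairs with TIE2, was at 145, 47, 234 and 197. Tek was level over the 3 other fractions, and Tie1 was 2.56-fold higher in PDPN+ than PDPN-. Eng, endoglin, a co-receptor for BMP9 and TGF-beta, was the exception, at 112, 279, 634 and 406. It was 2.30-fold higher in PDPN- than PDPN+ cells, under 2-fold with a pseudocount of 64, and its other probe set gave a log2 difference of -2.14.

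The sinusoidal scavenger genes did not move as 1 group. Stab2, stabilin 2, the hyaluronan scavenger receptor of sinusoids, was at 526 in PDPN+ and 56 in PDPN- cells, and at 1600 in ITGA8+ and 935 in ITGA8- cells, 7.53-fold higher in PDPN+ than PDPN-. Lyve1, the hyaluronan receptor of lymphatic and sinusoidal endothelium and of some macrophages, was at 195, 77, 690 and 729. Oit3, a secreted protein gene of liver, was at 71, 36, 488 and 652. These 3 were lowest in PDPN- cells and highest in the ITGA8 sort. Stab1, stabilin 1 of sinusoids and macrophages, was instead at 1648, 1636, 1136 and 749, nearly the same in PDPN+ and PDPN- cells. Clec4g, the sinusoidal lectin LSECtin, was at 33, 71, 296 and 44, above the floor in ITGA8+ cells alone of the fractions and 5.20-fold higher there than in ITGA8- cells. Its other probe set, at 45, 16, 78 and 22, was below the floor throughout and higher in PDPN+ than PDPN- cells. Fcgr2b, the inhibitory IgG receptor of sinusoids and myeloid cells, was at 124, 7, 20 and 26, above the floor in PDPN+ cells alone of the fractions. Its probe set with no a, s or x in the suffix of its name was at 1 to 2 in these arrays. Its values thus rest on probe sets that may match other transcripts.

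Among the peptide receptor genes, Gpr182, an atypical chemokine receptor of sinusoidal endothelium, was the 1 gene highest in PDPN- cells. It was at 278 in PDPN+ and 763 in PDPN- cells, and at 177 in ITGA8+ and 263 in ITGA8- cells, 2.65-fold higher in PDPN- than PDPN+. Aplnr, the apelin receptor of venous and sprouting endothelium, was at 135, 196, 2532 and 1024. It was 16.9-fold higher in ITGA8+ than PDPN+ cells, and 2.45-fold higher in ITGA8+ than ITGA8-. Its other probe set, at 83, 102, 151 and 235, went the other way in the ITGA8 split, at -0.59, and was under 2-fold between ITGA8+ and PDPN+, at 0.75. Calcrl and Ramp2 encode the partners of the adrenomedullin receptor. Calcrl was at 2804, 2497, 3829 and 3052, and Ramp2 at 1775, 671, 1767 and 1759, so Ramp2 was 2.61-fold higher in PDPN+ than PDPN- cells while Calcrl differed by 1.12-fold.

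The transcription and signalling genes were mostly higher in the ITGA8 sort, in 6 of 7. Lmo2, an adaptor of TAL1 complexes in endothelial and blood precursors, was at 971 in PDPN+ and 263 in PDPN- cells, and at 4880 in ITGA8+ and 4655 in ITGA8- cells. Erg, an ETS factor of endothelium and megakaryocytes, was at 54, 4, 115 and 64, above the floor in ITGA8+ cells alone. Its other probe set, at 19, 30, 54 and 90, was below the floor and went the other way in both splits, at -0.39 and -0.60. She, an SH2 adaptor gene, was at 96, 94, 504 and 275. She and Nos3, endothelial nitric oxide synthase, at 73, 63, 178 and 127, showed the step between the sorts without a low PDPN- array. Rasip1, needed for vessel lumen formation, was at 137, 190, 249 and 243. Egfl7, a secreted protein of endothelium, was at 731, 1089, 1676 and 1376, and both were lowest in PDPN+ cells. Of the 4 Egfl7 probe sets, that at 155, 122, 322 and 361 was lowest in PDPN- cells, and the others in PDPN+ cells.

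Between PDPN+ and PDPN- cells, 21 of the 35 genes passed the floor, of which 12 were called higher in PDPN+ cells and 3 lower. Over all genes that passed, 19.9% were called higher and 7.93% lower. The 12 were Esam, Icam2, Cd34, Kdr, Flt4, Tek, Tie1, Lyve1, Stab2, Fcgr2b, Ramp2 and Lmo2, and the 3 were Plvap, Eng and Gpr182. A gene that passed only through the array where it was high had to differ, so the counts were also taken over all 35. Of these, 21 were at least 2-fold higher in PDPN+ and 3 at least 2-fold lower, against 17.1% and 8.18% of all genes. The median was 1.35, against 0.02 over all genes. Folds against a level under the floor depend on the pseudocount. Of the 12 called higher, 7 were among the 10 genes that blood cells also express. Without those 10, of 13 genes that passed 5 were higher and 3 lower with a median of 0.03, and over the remaining 25 with no floor the median was 0.74. With quantile normalisation of the fractions the median of the genes that passed was 0.74, and Lyve1, at 0.63, and Tie1, at 0.84, were no longer 2-fold higher.

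Macrophage, megakaryocyte and mesothelial markers differed between the same arrays by far more. The 12 megakaryocyte markers, such as Pf4 and Itga2b, were above the floor in 12 of 12 in PDPN+ and 0 of 12 in PDPN- cells, with summed intensities of 36450 and 372. For the 16 macrophage markers the sums were 39932 and 826, with 15 and 2 above the floor, and for the 10 mesothelial markers 56813 and 1462, with 10 and 4. None was at 0 in any array. The 35 endothelial genes summed to 16040 and 9870, 10 stellate markers to 28548 and 29066, 10 erythroid markers to 16005 and 11671, and 10 hepatoblast markers to 154713 and 186227. The sums of the stellate markers were close, but their median log2 difference was -0.66. The part of blood cells and mesothelium in the endothelial differences was not tested.

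**Figure D2:**
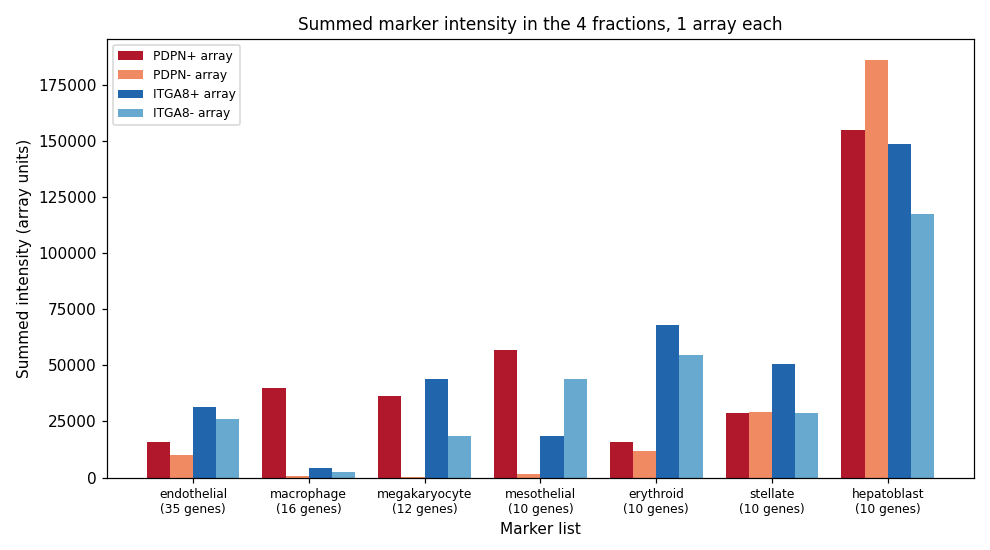
Summed intensity (array units) of each marker list in the 4 fraction arrays, 1 bar per array and no error, since each group has 1 array. The endothelial bars range from 9870 in PDPN- to 31287 in ITGA8+, and the macrophage and megakaryocyte bars in PDPN- are 826 and 372.

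Between ITGA8+ and ITGA8- cells the endothelial genes were mostly close. Of 33 that passed the floor, 4 were called higher in ITGA8+ cells, Plvap, Clec4g, Aplnr and Mmrn2, against 5.38% of all genes, and 1, Kdr, lower, against 6%. With no floor the counts were the same, beside 6.36% and 5.37% of all genes. The median was 0.14, against 0.00 over all genes. At any size 22 of the 35 were higher in ITGA8+ cells. That share was not counted over all genes, whose median with no floor was 0.05. Mmrn2 differed by 1.14 on the log2 scale, and its next probe set by 0.74, under 2-fold. In these arrays the megakaryocyte markers summed to 43777 and 18519, the stellate markers to 50758 and 28771, and the mesothelial markers to 18474 and 44019, while the endothelial genes summed to 31287 and 25872. Their part in the 5 calls was not tested.

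**Figure D3:**
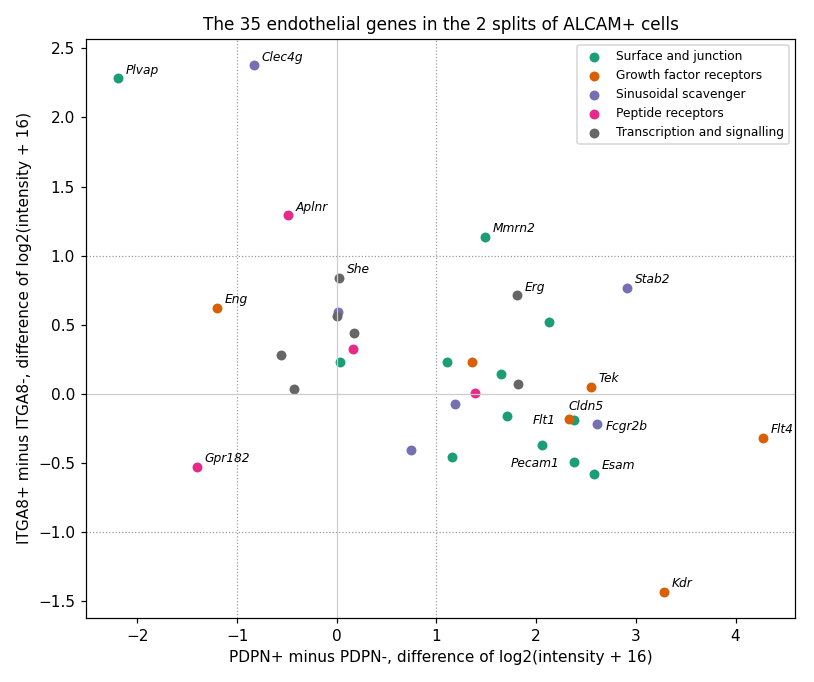
Difference of log2(intensity + 16) in the PDPN split (x axis) against the ITGA8 split (y axis) for each of the 35 genes, coloured by role; dotted lines mark 2-fold. Plvap lies at upper left with -2.19 and 2.28, and Kdr at lower right with 3.28 and -1.43.

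Set side by side, the splits, which share no array, separated a few genes from the rest. In log2 differences, PDPN split first, Plvap was at -2.19 and 2.28, Clec4g at -0.83 and 2.38, Aplnr at -0.49 and 1.29, and Eng at -1.20 and 0.62. Kdr had the opposite pair, 3.28 and -1.43. Clec4g was below the floor in both PDPN arrays, and its other probe set gave 0.93 and 1.31. The 10 stellate markers had medians of -0.66 and 1.13. In the PDPN split 2 of them were higher and 2 lower, beside 19.9% and 7.93% of all genes. In the ITGA8 split 6 were higher and 0 lower, beside 5.38% and 6%. The part of stellate cells in these pairs was not tested.

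ITGA8+ cells were also set against PDPN+ cells, which crosses the sorts and uses an array of either split, so that a difference between the sorts as procedures cannot be told apart from one between the cells. Of 32 genes that passed the floor, 18 were called higher in ITGA8+ cells, against 16.3% of all genes, and 1, Fcgr2b, lower, against 14.2%. Genes under the floor in 1 of the 2 arrays passed only through the other, so the counts were also taken over all 35. With no floor 18 were at least 2-fold higher and 1 at least 2-fold lower, against 19.4% and 10.8% of all genes. The median over all 35 was 1.02, against 0.19 over all genes. Among the 18, with a pseudocount of 16, were Plvap, 17.8-fold, Aplnr, 16.9-fold, Mmrn2, 8.22-fold, Clec4g, 6.37-fold, Oit3, 5.79-fold, Robo4, 5.48-fold, and Eng, 5.08-fold. Of these, Plvap, Mmrn2, Clec4g, Oit3 and Robo4 were under the floor in PDPN+ cells, so the sizes and order of their folds depend on the pseudocount: on the log2 scale Clec4g was at 2.67 with 16 and 1.89 with 64, and Mmrn2 at 3.04 and 2.50. The Aplnr call rests on 1 probe set, since its other one gave 0.75. Flt4, at a log2 difference of 0.01, Ramp2, at -0.01, Kdr, at 0.08, and Tek, at -0.18, were at nearly the same level in both. Of the 25 genes outside the blood cell group 15 were called higher and 0 lower, and of the 10 in it 3 higher and 1 lower. The erythroid markers moved with this step, with sums of 68205 in ITGA8+ and 54675 in ITGA8- against 16005 in PDPN+ and 11671 in PDPN- cells, and the macrophage markers went the other way, with 4048 and 2417 against 39932 and 826. Their part was not tested.

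Endothelial genes outside the 35 were counted by list beside them. Of 24 other surface and junction genes, 17 passed the floor in the PDPN split, 12 higher in PDPN+ and 1 lower, beside 19.9% and 7.93% of all genes. With no floor 13 of the 24 were higher and 2 lower, beside 17.1% and 8.18% of all genes. The differences included Podxl, podocalyxin of endothelium and mesothelium, 52.1-fold, Cav1, caveolin 1, 32.3-fold, and Cd36, a scavenger receptor, at 338 in PDPN+ and 4 in PDPN- cells. Of 18 transcription factor genes 14 passed, 8 higher and 1 lower. With no floor 8 of the 18 were higher and 2 lower, beside the same 17.1% and 8.18%. Tal1 was 6.12-fold, Klf4 5.87-fold and Gata2 5.70-fold higher. These lists were not limited to genes of endothelium alone, and the part of blood cells and mesothelium in them was not tested. In the ITGA8 split the surface genes had 2 higher and 3 lower of 17, and the transcription factor genes 1 higher, Sox17, and 0 lower of 16. Over all genes 5.38% were higher and 6% lower. With no floor the counts of both lists were the same, beside 6.36% and 5.37% of all genes. Cav1 was 5.22-fold lower and the arterial gene Notch4 3.07-fold higher in ITGA8+ cells. Sox17, an arterial and endothelial factor, was at 36 in PDPN+ and 11 in PDPN- cells, and at 232 in ITGA8+ and 107 in ITGA8- cells.

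Genes of ligands and co-receptors were taken as a further list. Of 15 ligand and co-receptor genes, 12 passed the floor in the PDPN split, 4 higher in PDPN+ and 2 lower, beside 19.9% and 7.93% of all genes. With no floor 6 of the 15 were higher and 2 lower, beside 17.1% and 8.18%. In the ITGA8 split 12 passed, 4 higher in ITGA8+ and 0 lower, beside 5.38% and 6%. The counts over the 15 were the same, beside 6.36% and 5.37% with no floor. Gdf2, which encodes BMP9, the ligand of endoglin and ALK1, was at 894 in PDPN+ and 2481 in PDPN- cells, and at 6991 in ITGA8+ and 1133 in ITGA8- cells. Adm, adrenomedullin, the ligand of the Calcrl and Ramp2 receptor, was at 920, 2121, 3447 and 754. Vegfd, a ligand of the Flt4 receptor, was at 114, 221, 1097 and 305. In all 3, as for Eng and Plvap, PDPN- was above PDPN+ and ITGA8+ above ITGA8-. The medians of the 10 stellate markers, -0.66 and 1.13, had the same signs. Nrp2, a VEGF-C co-receptor, had the opposite order in the PDPN split, at 2928, 80, 2441 and 3498, with a 30.7-fold difference. Pgf, placental growth factor, was 8.57-fold and Angpt1, a TIE2 ligand, 5.84-fold higher in PDPN+ than PDPN- cells.

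ALCAM+ cells were compared with liver cells on the arrays' own scale. Over all genes above the floor the median difference was 0.90, or 1.87-fold, and this shift was taken off each difference. Of 25 endothelial genes that passed, 1 was called higher in ALCAM+ cells, against 15.4% of all genes, and 3 lower, against 11.2%, with a median of -0.09 against 0.00. Over all 35 genes 10 were higher at any size, a share not counted over all genes, and the median was -0.29, against -0.43 over all genes. Most endothelial genes therefore lay near the shift of all genes. As deposited, with no shift taken off, 8 were called higher and 0 lower, against 45.5% and 2.55% of all genes. The median was then 0.81.

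The genes called lie on either side of this shift. Flt4 was at 212 in liver and 891 in ALCAM+ cells, 2.13-fold higher relative to the shift. Gpr182 was at 137 and 90, 2.70-fold lower, Lmo2 at 3639 and 2698, 2.52-fold lower, and Icam2 at 275 and 239, 2.13-fold lower. Lmo2 and Icam2 are among the genes that blood cells also express, and the markers of blood cells went different ways. The 10 erythroid markers were lower in 10 of 10, with a median of -2.55, whereas of 12 megakaryocyte markers 9 were higher and 0 lower, with a median of 1.49, and of 14 macrophage markers that passed 4 were higher and 1 lower. Mesothelial markers were higher in 9 of 9 that passed, with a median of 3.19. Their part in these calls was not tested. Clec4g, at 27 and 134, Stab2, at 201 and 695, Plvap, at 85 and 296, and Tek, at 285 and 848, were 1.87-fold, 1.75-fold, 1.65-fold and 1.54-fold higher, short of 2-fold. Cdh5, at 63 and 105, Pecam1, at 103 and 85, and Erg, at 38 and 54, were below the floor in both arrays.

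**Figure D4:**
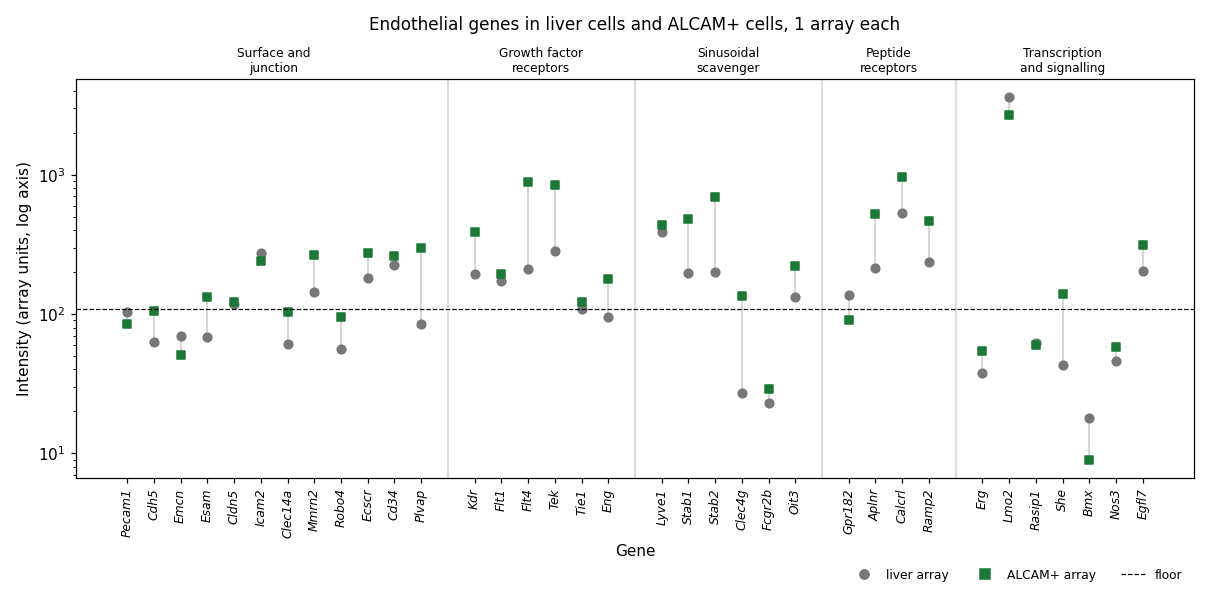
Intensity (log axis) of the 35 genes in the liver and ALCAM+ arrays, 1 point per array, with the floor at 109 dashed; the plot shows deposited values, before the 1.87-fold shift of all genes is taken off. Flt4, at 212 and 891, and Clec4g, at 27 and 134, are among the widest gaps, and Lmo2 is higher in liver.

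Agreement of probe sets is the one check within an array, and 14 of the 35 genes had more than 1. In the PDPN split, 3 called genes, Flt4, Eng and Lyve1, had another probe set above the floor, and all 3 went the same way past 2-fold. In the ITGA8 split 2 of 3 other probe sets of called genes went the same way and 0 past 2-fold. Between ITGA8+ and PDPN+ cells 11 of 11 went the same way and 6 past 2-fold. Between ALCAM+ and liver cells the 1 such gene was Flt4, whose other probe set gave 0.94, just under 2-fold.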

How the data were processed

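Gene expression was measured on 6 arrays, 1 per group, and groups were taken from each sample's source label. Amplification and biotin labelling started from 20 ng of total RNA, per the labels' protocols. The deposited values are linear intensity values per probe set, rounded to whole numbers. The submitters' processing notes name RMA and Partek; no version was found in the sources used here. Depth has no meaning for arrays, whose number limits the precision.

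Of 45101 probe sets, 64 controls were left out, and those that name 1 Entrez Gene gave 20678 genes, with symbols for 88.2% of them from RefSeq (GRCm38.p6). The probe set of highest mean in the 4 fractions stood for its gene. Values were transformed to log2(intensity + 16) with Python 3.11.15, pandas 2.3.3 and numpy 2.4.6; the code was tested on simulated data. All 35 genes are named, and of the other lists at most the 3 genes of largest difference in a comparison, or genes used as examples of a list. The members and lists were chosen with earlier results of these data known, including the low PDPN- values, so their direction is not independent support. Alternatives were the pseudocount, floor, probe set, normalisation, shift and fold.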

Additional observations from a re-analysis of the deposited data

How the results depend on the processing

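No paired analysis was possible because each group has 1 array, and for the same reason no replicate could be left out. Counts of endothelial genes called are given here by setting; 84 counts under an alternative stayed within 1.5 times the reported one and 24 did not. At 4-fold, ALCAM+ against liver had 0 higher and 0 lower, PDPN+ against PDPN- 7 higher and 1 lower, ITGA8+ against ITGA8- 2 higher and 0 lower, and ITGA8+ against PDPN+ 10 higher and 0 lower. The shares of all genes at 4-fold, higher then lower, follow in the same order. They were 3.55% and 2.24%, 9.11% and 0.811%, 0.353% and 0.469%, and 4.13% and 3.47%. With no floor, 21 were higher in PDPN+ than PDPN-, against 17.1% of all genes. For ALCAM+ against liver the shift was retaken with no floor, at 0.47 in place of 0.90. This gave 5 higher and 0 lower, against 15.5% and 6.14% of all genes. With the shift kept at 0.90 and no floor, 1 was higher and 6 were lower, against 1765 and 3749 of all 20678 genes. As deposited the comparison had 8 higher and 0 lower, against 45.5% and 2.55%. With a pseudocount of 1 it had 2 higher, against 17.9%. With the floor of the same set of arrays, 5 of 33 were lower in ALCAM+ cells, against 11.9% of all genes. In ITGA8+ against PDPN+ 0 were lower, against 14.5%. The 1 gene lower in ITGA8+ than PDPN+, Fcgr2b, was also not called with the mean of all probe sets, with specific probe sets, or with a floor on the mean of the 2 arrays (0 each). Specific here means only that the suffix of the name holds no a, s or x. Whether the probe sets left out match other genes was not tested. With specific probe sets 2 were higher in ITGA8+ than ITGA8-, against 4.59% of all genes. With these probe sets 3 called differences changed sign: Aplnr in the ITGA8 split, at -0.59, and Fcgr2b, at -0.0825 in the PDPN split and 0.0825 between ITGA8+ and PDPN+. In an alternative added once values were known, without the 10 genes that blood cells also express, 5 were higher in PDPN+ than PDPN-, 1 lower in ALCAM+ cells, 0 lower in ITGA8+ than PDPN+, and 16 of 25 lowest in PDPN-. The shares of all genes are here those given with the reported counts. The floor on the mean of the 2 arrays and the alternatives for counts over the fractions were also added then. The cause of these changes was not tested beyond what each setting removes. With quantile normalisation 22 of 35 were lowest in PDPN- and 21 had the ITGA8 sort above the PDPN sort.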

Other observations

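A pair of probe sets that name both Ramp2 and its genomic neighbour Vps25 were left out of the counts. They were at 2471 and 2567 in PDPN+, 3942 and 3730 in PDPN-, 910 and 1984 in ITGA8+, and 2670 and 3048 in ITGA8- cells. Their order differs from that of the probe set specific to Ramp2, which was lowest in PDPN- cells.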
